A study of Homo sapiens with 9 samples.

Results

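IGF2BP1 depletion was compared with a control transfection in ES-2, a human cell line derived from epithelial ovarian cancer (EOC). Genes were included if their mean was at least 0.1 FPKM (a level scaled to gene length and to the size of the library) over the 3 control libraries (siC) and the 3 libraries of cells transfected with an IGF2BP1-directed siRNA pool (siIGF2BP1), which left 22292 of the 58174 genes in the table. No measured change entered this choice. RNA was taken 72 h after transfection, and by their labels both groups were ES-2 cells that differ in the siRNA pool. The paper states that ES-2 cells were reported to carry mutated p53, which both groups share. The siC pool controls for transfection as such, and what the siIGF2BP1 pool does to other mRNAs directly and what loss of the protein does cannot be told apart. Cells transfected with an SRF-directed pool (siSRF, 3 libraries) were used where the depletions are set side by side, and in an alternative fit over all 9 libraries. Nothing in the sources states that the replicates were separate cultures on separate days, so p-values measure the spread between these libraries.

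IGF2BP1 is an oncofetal RNA-binding protein. It binds mRNAs in the cytoplasm, chiefly in their 3′ untranslated regions, and is known to shield target mRNAs from microRNA-directed and other decay. In ovarian cancer cells it has been linked to growth and invasion. RNA taken 72 h after a knockdown reads out direct targets together with everything downstream of them, and the abundance of an mRNA does not part synthesis from decay.

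The libraries were made from total RNA after removal of ribosomal RNA, and held 6421764 to 8419467 reads on genes. The small cytoplasmic RNA gene RN7SL2 took 4.52 to 5.38% of these reads. Marker levels were mixed: vimentin (VIM) was at 1055 FPKM in siC and the epithelial keratin KRT7 at 101 FPKM, whereas the Müllerian factor PAX8 was at 0.155 FPKM, and 2 of the 10 ovarian epithelial markers, MUC16 among them, were at 0 in all 6 libraries. The 6 leukocyte markers summed to 0.126 to 0.223 FPKM in siC and 0.263 to 0.945 FPKM in siIGF2BP1, with PTPRC and CD3E at 0. The 5 endothelial markers summed to 8.38 to 11 and 14.5 to 16.4 FPKM, nearly all from VE-cadherin (CDH5), with CLDN5 at 0; their part in the results below was not tested. In bulk RNA, fewer cells of a kind and less RNA per cell cannot be told apart.

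IGF2BP1 itself, on chromosome 17 from 48997385 to 49056145 (GRCh38, plus strand), was at 12.8, 13.5 and 12.1 FPKM in siC and at 4.18, 4.14 and 4.02 FPKM in siIGF2BP1. The groups did not overlap, and the mean that remained was 32.2% of siC. On the log2 scale of FPKM + 0.1 the change was -1.61 ± 0.067 (SE, adjusted p = 0.000141), and the exact two-sided permutation test gave p = 0.1, the smallest possible with 3 against 3 libraries. Its paralogs did not pass the test: IGF2BP2 was at 28.5 ± 1.2 FPKM in siC and 31.2 ± 1.8 FPKM afterwards (SD, n = 3; adjusted p = 0.0968), and IGF2BP3 at 9.62 ± 0.82 and 11.8 ± 0.45 FPKM (adjusted p = 0.0489). Of 14 mRNAs reported elsewhere as IGF2BP1 targets and tested here, 0 fell and 3 rose (21.4%), HMGA2 and FSCN1 among them. Over all genes tested, 3.57% fell and 3.55% rose. The count of targets depended on the fit. Limma-voom on recovered reads called 4 lower and 3 higher, where it called 8.48% of all genes lower and 8.59% higher. A single fit of all 9 libraries called 3 and 3, and with a library left out 0 were lower and 0 to 1 higher. MYC, the best known of these targets, was at 55.9 ± 0.83 FPKM and 54.9 FPKM with an adjusted p of 0.764.

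Upon IGF2BP1 depletion, 796 genes fell and 792 rose with an adjusted p of 0.01 or less (limma, Benjamini-Hochberg over all genes tested). These are 3.57% and 3.55% of the genes tested, or 7.12% together, and each list below is to be read against these shares. The limma-voom fit, an alternative on whole reads recovered from the values, called 8.48% lower and 8.59% higher, or 17.1% together, and its counts for a list are to be read against those. Protein-coding genes made up 739 of the decreased and 691 of the increased genes. In all of these the groups did not overlap, against 6329 of the 12512 protein-coding genes tested. The median change over all genes was 0.017 on the log2 scale. Most changes were moderate: at least 2-fold was reached by 135 of the decreased and 274 of the increased genes. The counts depended on having 3 libraries a group. They were 246 lower and 262 higher without siC replicate 1, 223 and 289 without siC replicate 2, 235 and 316 without siC replicate 3, 194 and 221 without siIGF2BP1 replicate 1, 188 and 231 without siIGF2BP1 replicate 2, and 117 and 156 without siIGF2BP1 replicate 3.

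**Figure D1:**
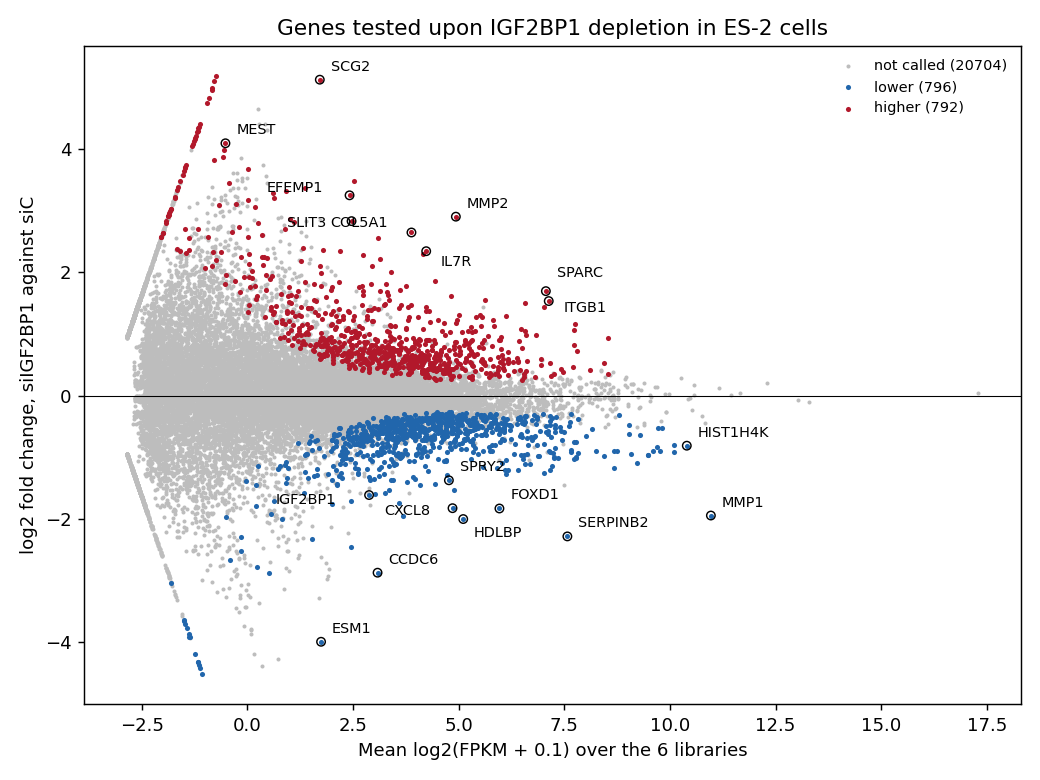
Change of each gene upon IGF2BP1 depletion (log2 fold change, vertical axis) against its mean level over the 6 libraries (log2 of FPKM + 0.1, horizontal axis), with 796 lower genes in blue, 792 higher genes in red and named genes circled. Abundant decreased genes such as MMP1 and SERPINB2 stand to the lower right, SCG2 at 5.12 stands at the top, and the straight edges at the left are genes listed at 0 in all libraries of a group.

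The largest decrease among protein-coding genes with at least 1 FPKM was that of ESM1, which encodes the secreted proteoglycan endocan and lies on chromosome 5 from 54977867 to 55022671. ESM1 was at 13.4, 13.9 and 12.5 FPKM in siC and 0.629, 1.12 and 0.57 FPKM in siIGF2BP1 (log2 change -3.99 ± 0.23). CCDC6, a coiled-coil protein known as a fusion partner of the RET kinase, followed with 24.2, 22.7 and 21.6 FPKM against 3.21, 3.14 and 2.77 FPKM (-2.87 ± 0.082). In both genes the highest depleted library was far below the lowest control, and the rule that picked them required groups without overlap. The mRNA for vigilin, HDLBP, a multi-KH-domain RNA-binding protein, was at 67.2, 72.2 and 67.6 FPKM in siC and 18.0, 16.6 and 16.9 FPKM after depletion (-2.0 ± 0.052). The inhibitor of urokinase SERPINB2 stood at 408, 410.4 and 444 FPKM and dropped to 82.3, 87.2 and 89.7 FPKM (-2.28 ± 0.056). MMP1, the interstitial collagenase, is among the most abundant mRNAs of these cells and decreased from 3823, 3832 and 4168 FPKM to 975, 1021 and 1076 FPKM (-1.94 ± 0.088). The remaining genes that the size rule picked were less abundant. They were the cytokine IL1A (-2.66), the anti-apoptotic BCL2 relative BCL2A1 (-2.78), the TIE2 ligand ANGPT2 (-1.96) and the hair keratin-associated gene KRTAP2-3 (-2.45). The others were the small GTPase RAB38 (-2.33), the orphan receptor GPR3 (-2.0) and the transgelin relative TAGLN3 (-1.92). Several of these depended on the fit. Over the alternatives other than left-out libraries, IL1A ranged from -3.11 to -1.22, BCL2A1 from -3.08 to -1.55 and ANGPT2 from -2.29 to -0.87.

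The largest increase was that of SCG2, secretogranin II, a granin of neuroendocrine secretory granules, on chromosome 2 from 223596940 to 223602361. SCG2 was at 0.613, 0.433 and 0.356 FPKM in siC and at 19.9, 18.7 and 19.2 FPKM in siIGF2BP1 (log2 change 5.12 ± 0.17). MMP2, the gelatinase that cleaves basement membrane collagen, went from 9.46, 11.9 and 12.2 FPKM to 87.1, 78.2 and 85.1 FPKM (2.90 ± 0.11), opposite to MMP1. Neither pair of groups overlapped, as the rule that picked these genes required. The fibulin EFEMP1 rose from 1.53, 2.01 and 1.43 FPKM to 16.1, 16 and 16.9 FPKM (3.24 ± 0.13), and the axon guidance ligand SLIT3 from 1.94, 1.99 and 2.0 FPKM to 15.4, 13.2 and 15.3 FPKM (2.83 ± 0.086). A further set was near absent in siC: the imprinted gene MEST, the aldo-keto reductase AKR1B10, CAPSL and the RNA-binding NANOS1 were below 0.4 FPKM in each siC library and above 1.9 FPKM in each siIGF2BP1 library. The phospholipid flippase ATP8B1 rose by 3.37 on the log2 scale, the interferon-induced membrane protein IFITM1 by 3.28, the hyaluronan-degrading CEMIP by 3.16 and the proteoglycan-cleaving ADAMTS15 by 2.85. CAPSL and AKR1B10 rested on 11.3 and 18.3 reads per library on average, so their factors are less firm than that of SLIT3, with 916 reads. Others depended on the fit too. Over the alternatives other than left-out libraries, MEST ranged from 1.81 to 5.66 and NANOS1 from 1.48 to 3.70.

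**Figure D2:**
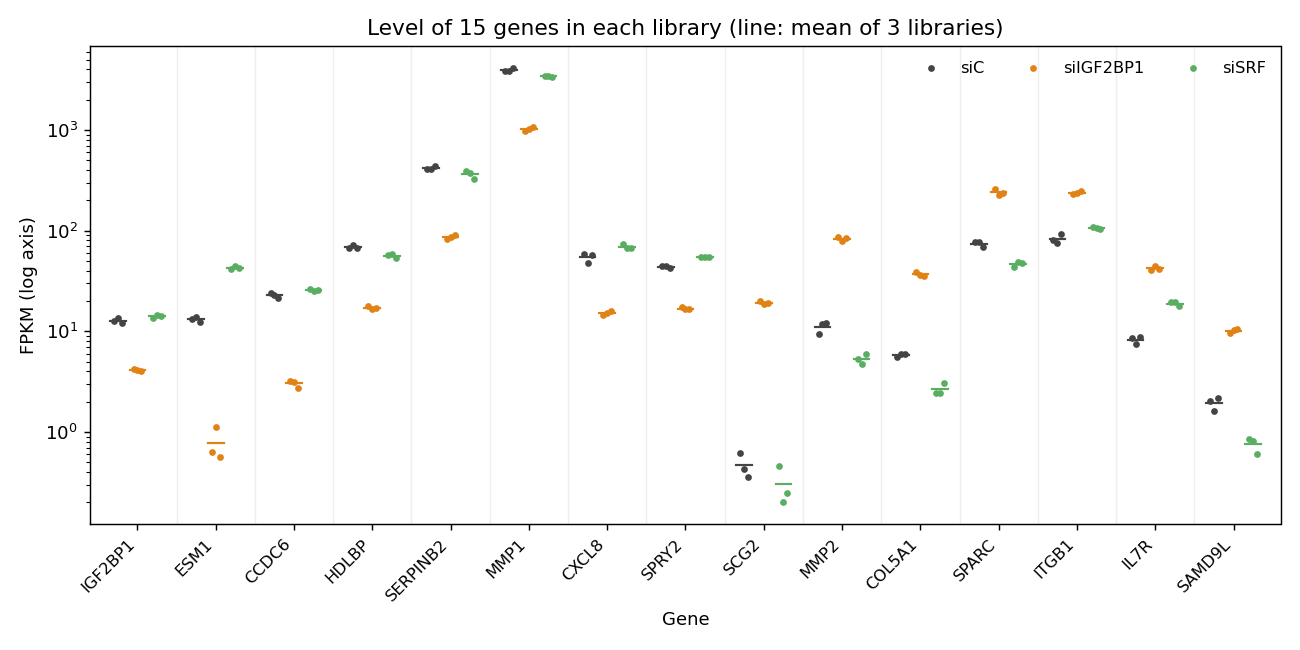
FPKM (log axis) of 15 genes in each of the 3 siC, 3 siIGF2BP1 and 3 siSRF libraries, with a line at each group mean. The siIGF2BP1 points lie apart from the siC points for all 15 genes, which holds for every protein-coding gene called. ESM1, MMP2 and SAMD9L differ from siC in opposite directions in both depletions.

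Many genes of the extracellular matrix increased. The matrix of connective tissue is built from fibrillar collagens, network collagens of the basement membrane and glycoproteins, which are modified and crosslinked by hydroxylases and lysyl oxidases. Of 21 collagen genes tested, 10 rose (47.6%) and COL13A1 fell, with a median of 0.74. COL5A1, the chain that starts collagen fibrils, was at 5.58, 5.91 and 5.96 FPKM in siC and 38.7, 36.0 and 35.6 FPKM in siIGF2BP1 (2.64 ± 0.057). COL1A1, of the main fibrillar collagen, went from 3.55, 4.20 and 2.76 FPKM to 25.6, 17.1 and 20.0 FPKM (2.54 ± 0.20). The basement membrane pair COL4A1 and COL4A2, which share a promoter region, rose together by 1.71 and 1.61. COL16A1 rose by 1.64 and COL12A1 by 0.96, whereas the most abundant collagen, COL6A2, did not pass the test (46.8 ± 3.4 against 40.5 ± 1.9 FPKM, adjusted p = 0.0942). With each library left out in turn, 4 to 7 collagens were called higher and 0 lower, and the median lay between 0.70 and 0.81.

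Among 39 matrix glycoproteins and crosslinking enzymes, 18 rose (46.2%) and 3 fell, with a median of 0.54. SPARC, a collagen-binding glycoprotein, was at 77.9, 77.2 and 68.5 FPKM in siC and 259.7, 226 and 237 FPKM in siIGF2BP1. FBN1, the main component of microfibrils, rose by 2.28 ± 0.082, MATN2 by 2.30 ± 0.22 and the lysyl oxidase LOXL1 by 1.43 ± 0.085. The most abundant crosslinking enzyme, LOX, went from 104 ± 4.3 to 147 ± 6.4 FPKM. The 3 decreased genes were those for fibronectin (FN1, 8.25 ± 0.43 to 4.70 ± 0.40 FPKM), the laminin chain LAMB3 and the cell surface proteoglycan SDC1, so the increase was not shared by every adhesive glycoprotein. The count of increased genes was 7 to 12 with a library left out, and that of decreased genes 0 to 1. SERPINH1, the collagen chaperone HSP47, rose from 36.8 ± 2.5 to 86.2 ± 8.6 FPKM.

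Integrins are the receptors that tie cells to these ligands. Of 16 integrin genes tested, 8 rose (50%) and ITGA6, a laminin receptor chain, fell. ITGB1, the β-chain shared by most matrix receptors, was at 81.1, 75.3 and 92.0 FPKM in siC and 229, 239 and 247 FPKM in siIGF2BP1 (1.53 ± 0.080). ITGAV rose by 1.46 and its partner chains ITGB5 and ITGB3 by 1.28 and 1.77. The collagen receptor chain ITGA11 was at 0.251, 0.19 and 0.28 FPKM in siC and at 2.17, 2.21 and 2.05 FPKM in siIGF2BP1 (2.73 ± 0.23). With a library left out, 4 to 5 integrins were called higher and 0 lower. A pseudocount of 1 or 0.01 FPKM also gave 0 lower, so the ITGA6 call depended on the fit. The mesenchymal surface protein THY1 rose by 1.85, the N-cadherin gene CDH2 by 0.66 and the repressor SNAI2 by 1.35, while PRRX1 fell by 0.66 on the log2 scale and VIM was not called. Of 10 keratins tested 5 rose, KRT80 by 0.90 and KRT7 by 0.59, and 1 to 2 were called with a library left out.

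In the proteolytic system around the cell, both directions occurred. The metalloproteinase MMP14, which activates pro-MMP2 at the membrane, fell from 38.8 ± 1.1 to 23.3 ± 1.2 FPKM, and its co-factor TIMP2 rose from 9.02 ± 0.96 to 14.9 ± 1.9 FPKM. In plasminogen activation and the serpins, 3 of 12 genes fell and 5 rose. The urokinase receptor PLAUR decreased from 24.1 ± 0.51 to 13.5 ± 0.47 FPKM. The anti-angiogenic SERPINF1 rose by 1.70, opposite to SERPINB2.

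In the transforming growth factor β (TGF-β) response, receptor kinases activate SMAD2 and SMAD3 and the induced SMAD7 feeds back on the receptors. Of 24 genes of the TGF-β and activin pathway, 9 rose (37.5%) and 0 fell. SMAD7 was at 0.492, 0.638 and 0.487 FPKM in siC and 3.39, 2.41 and 2.94 FPKM in siIGF2BP1 (2.23 ± 0.21). SMAD3 rose by 0.73, the SMAD co-repressor SKIL by 0.96, the secreted target TGFBI by 1.09 and the follistatin relative FSTL1 by 1.13. Leaving out a library gave 3 to 5 calls. In the BMP pathway 3 of 17 rose and 1 fell: BMP2 fell by 1.33 on the log2 scale, while the inhibitory SMAD6, the collagen propeptidase BMP1 and SMAD5 rose. Fits with a library removed called 0 of these BMP genes lower and 0 to 1 higher. In the WNT pathway 3 of 27 rose, among them DKK3 (78.5 ± 4.0 to 213 ± 5.3 FPKM), and FZD8 and SFRP1 fell.

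Several feedback genes of the ERK pathway decreased. Growth factors that engage receptor tyrosine kinases activate ERK, which induces its own inhibitors, the Sprouty proteins and dual-specificity phosphatases, and the ETS factors ETV4 and ETV5. The ERK feedback genes, as this list is called below, also held other ERK targets such as CCND1. Of the 27 tested, 11 fell (40.7%) and 0 rose, with a median of -0.43. DUSP5, a nuclear ERK phosphatase, was at 49.4, 52.8 and 49.8 FPKM in siC and 19.5, 17.3 and 15.9 FPKM in siIGF2BP1 (-1.53 ± 0.079). SPRY2 was at 44.2, 44.3 and 43.0 FPKM and at 17.4, 16.6 and 16.6 FPKM (-1.37 ± 0.042). ETV4 (-1.2), DUSP6 (-0.85) and SPRY4 (-0.79) fell too. CCND1, cyclin D1 and the most abundant gene of the list, was at 209 ± 14 and 214 ± 9.9 FPKM and did not pass the test (adjusted p = 0.779). With a library left out, 3 to 5 of the 27 were called lower and the median lay between -0.49 and -0.41.

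The genes upstream of this pathway moved in both directions. Among 23 growth factor ligands 6 fell (26.1%) and 2 rose. HBEGF, an EGF receptor ligand, was at 26.9, 27.1 and 29.6 FPKM in siC and 9.72, 9.09 and 11.6 FPKM in siIGF2BP1. FGF5 dropped from 17.4 ± 1.9 to 5.91 ± 0.31 FPKM. Of the PDGF chains, PDGFA fell by 0.97 on the log2 scale and PDGFB rose by 1.25. Among 16 receptor tyrosine kinases 7 rose (43.8%) and 0 fell. AXL, the GAS6 receptor and the most abundant of them, went from 270 ± 12 to 516 ± 18 FPKM, KIT from 2.07 ± 0.22 to 7.22 ± 0.71 FPKM and the WNT5A receptor ROR1 from 0.631 ± 0.11 to 4.64 ± 0.59 FPKM. EGFR rose by 0.26 only. Fits with a library removed called 3 to 5 ligands lower and 3 to 4 receptors higher.

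Several inflammatory cytokines decreased, IL1A among them. CXCL8, the neutrophil-attracting interleukin 8, was at 58.8, 48.1 and 56.9 FPKM in siC and 14.6, 15.4 and 15.9 FPKM in siIGF2BP1 (-1.83 ± 0.085). CXCL5 was at 94.2, 79.2 and 96.8 FPKM and at 40.1, 39.8 and 40.0 FPKM (-1.17 ± 0.080), and IL24 fell by 1.37 on the log2 scale. In all, 6 of 27 genes of the list fell (22.2%), or 1 to 3 with a library left out, and the median was -0.14 with 10 of the 27 above 0. The only member that rose was IL7R, the interleukin 7 receptor chain, from 8.57, 7.48 and 8.81 FPKM to 40.6, 44.1 and 41.9 FPKM (2.34 ± 0.075).

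Part of the interferon-stimulated genes rose. These genes, among them the IFIT family that binds foreign RNA, carry interferon-stimulated response elements, to which IRF factors bind. Of 42 tested, 10 rose (23.8%) and DDX58, the RNA sensor RIG-I, fell from 6.96 ± 0.36 to 3.63 ± 0.18 FPKM. The median was 0.41, and 36 of the 42 had a change above 0. The interferon-induced IFITM1 described above is not among these 42. SAMD9L, a translation-inhibiting antiviral factor, was at 2.02, 1.63 and 2.19 FPKM in siC and 9.63, 10.4 and 10.5 FPKM in siIGF2BP1 (2.34 ± 0.12). UBA7, the activating enzyme of ISG15, rose by 1.36, IFIT1 by 0.94, IFIT2 by 0.88 and IRF1 by 0.81, at low levels of 1.13 to 4.42 FPKM in siC. With a library left out 1 to 3 were called higher and 0 to 1 lower, and the median was 0.40 to 0.47.

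A pair of GAAA blocks parted by 2 bases of any kind is the core of such a response element. Both strands were searched in the RefSeq promoter table (GRCh38.p14, 250 bases before to 50 bases after each start), in which 33 of the 42 genes were matched. The core occurred in 20 of these 33 promoters (60.6%), in 4 of the 7 matched genes that rose (57.1%) and in 16 of the 25 matched genes that were not called (64.0%), against 3.65% of all 27305 promoters. No other motif was searched. The 4 windows of increased genes are shown because they place the core in each; capitals mark the 10 bases of the core.
IFIT1: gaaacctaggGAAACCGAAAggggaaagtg
IFIT3: gaggaaactgGAAAGTGAAActaatttaaa
PARP14: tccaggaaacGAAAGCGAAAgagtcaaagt
SAMD9: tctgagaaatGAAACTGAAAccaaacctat
They lie at chr10:89392510-89392539 (minus strand), chr10:89327865-89327894 (minus strand), chr3:122680800-122680829 (plus strand) and chr7:93118096-93118125 (minus strand). A match is a description of the letters and no evidence of binding.

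Antigen presentation by MHC class I, which is also interferon-responsive, rose in 5 of 20 genes (25.0%) and fell in 0. The peptide-trimming ERAP1 went from 15.5 ± 0.50 to 28.9 ± 2.0 FPKM and the light chain B2M from 70.2 ± 4.6 to 102 ± 6.9 FPKM. Fits without a library called 1 to 2 of the 20. Of 10 complement genes 3 rose, CLU by 1.2 and the regulators CD46 and CD59 by 0.54 and 0.42, while 0 to 1 were called higher with a library left out and 7 with limma-voom.

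**Figure D3:**
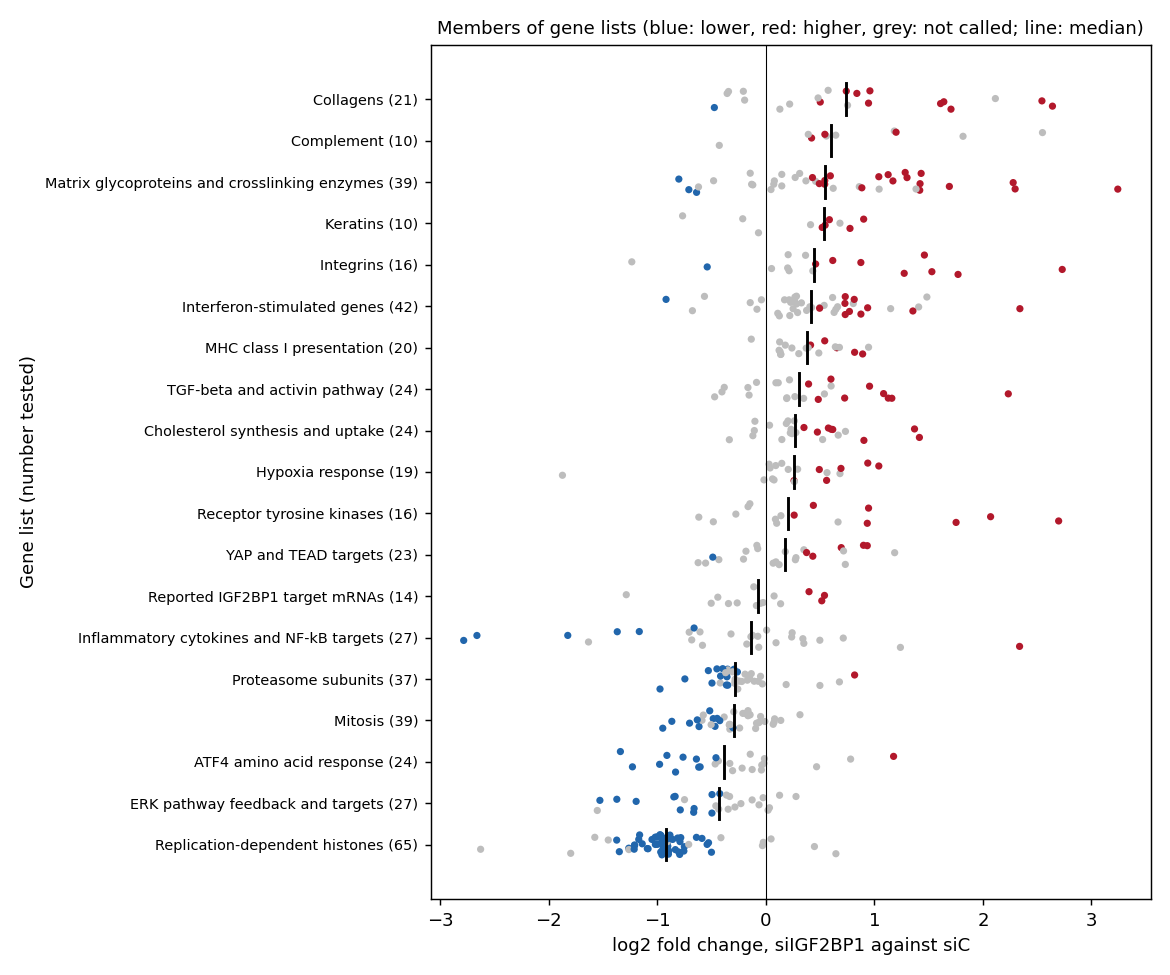
log2 fold change (horizontal axis) of each tested member of 19 gene lists (vertical axis, number tested in brackets), with decreased members in blue, increased members in red, other members in grey and a black line at the median. The histone genes lie almost wholly to the left of 0 around a median of -0.92, and collagens, matrix glycoproteins and integrins lie mostly to the right.

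The replication-dependent histone genes decreased widely. They are expressed in S phase, lack introns, and end in a conserved stem-loop in place of a poly(A) tail, so they are measured here because total RNA was sequenced. Of 65 tested, 52 fell (80%) and 0 rose, with a median of -0.92. All classes took part: HIST1H4K, the most abundant, was at 1702, 1873 and 1808 FPKM in siC and 1058, 968 and 1038 FPKM in siIGF2BP1 (-0.81 ± 0.077). HIST3H2BB was at 17.5, 17.3 and 15.9 FPKM and at 6.23, 6.67 and 6.44 FPKM (-1.37 ± 0.063). HIST1H2AJ fell by 1.26, HIST1H2BH by 1.21 and HIST1H3I by 1.21 on the log2 scale. Of the 13 that were not called, 5 had fewer than 10 reads per library. HIST1H3E, at 11.8 and 11.5 FPKM with 229 reads, showed no decrease (adjusted p = 0.912). Others of the 13 were lower but varied within groups, such as HIST1H2BK at 337, 359 and 217 FPKM in siC and 153, 85.3 and 97.6 FPKM in siIGF2BP1 (adjusted p = 0.0169). With 2 libraries in a group 4 to 19 were called lower, and the median then lay between -0.98 and -0.87. In siSRF the list's median was also below siC, between -0.63 and -0.52, against -1.06 to -0.83 in siIGF2BP1. Both depletions share the siC libraries. Many copies are near identical in sequence, so the share of each single copy is uncertain and the 52 are not independent.

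The stem-loop was searched on the sense strand as 16 bases, a stem of 6 and 6 bases around a loop of 4, within 150 bases of a transcript's end in GENCODE v44. It was found in 60 of 61 tested histone genes with a transcript there (98.4%), against 25 of 12416 other protein-coding genes tested (0.201%). Of the histone genes, all 48 called lower and 12 of 13 not called (92.3%) held it, so it does not mark those that fell. HIST2H2BE lacked it within that distance. The commonest form occurred in 33 genes. Sequences of 3 genes are given because they carry the end by which these mRNAs differ from the rest, from a member described above, the most abundant member and the member at 229 reads that did not fall. Capitals mark the stem.
HIST3H2BB: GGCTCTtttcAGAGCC
HIST1H4K: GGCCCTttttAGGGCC
HIST1H3E: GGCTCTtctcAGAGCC
They lie at chr1:228458538-228458553 (plus strand), chr6:27831178-27831193 (minus strand) and chr6:26225596-26225611 (plus strand). The loop of HIST1H3E is shared with HIST1H4L, which fell by 0.95 on the log2 scale.

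**Figure D4:**
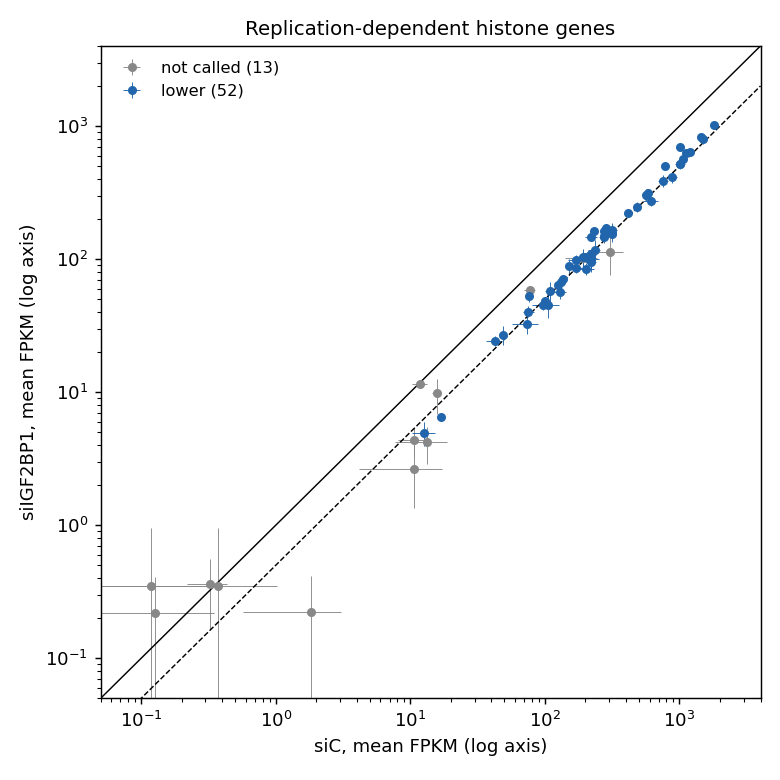
Mean FPKM in siIGF2BP1 (vertical, log axis) against siC (horizontal, log axis) of the 65 replication-dependent histone genes tested, with SDs over 3 libraries as bars, equality as a solid line and a 2-fold decrease as a dashed line. The 52 genes called lower, in blue, lie below the solid line, near the dashed one.

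Other genes of cell division moved less. Of 39 mitotic genes, 11 fell (28.2%) and 0 rose, with a median of -0.30. UBE2C, the ubiquitin-conjugating enzyme of the anaphase-promoting complex, went from 61.5 ± 8.9 to 31.8 ± 4.8 FPKM, the chromosomal passenger kinase AURKB from 45.1 ± 5.8 to 24.7 ± 2.7 FPKM and the mitotic cyclin CCNB1 from 96.4 ± 3.7 to 59.3 ± 4.5 FPKM. CDC20 (-0.62) and PLK1 (-0.63) fell as well. Leaving out a library gave 1 to 5 calls. In siSRF the list's median was also below siC, between -0.21 and -0.16. In DNA replication, 6 of 42 genes fell and MCM4 rose, with a median of -0.13. The lower count was 0 to 1 with a library left out and 14 with limma-voom. The ribonucleotide reductase subunit RRM2 (-0.49) and the chromatin assembly factor CHAF1A (-0.52) fell, while PCNA, the clamp and the most abundant of the list, was at 144 ± 1.7 and 132 ± 5.8 FPKM (adjusted p = 0.117). The histone median of -0.92 lay below both; this difference was not tested. Among 14 G1 cyclins, CDKs and inhibitors, cyclin E1 (CCNE1, 7.30 ± 1.5 to 3.31 ± 0.18 FPKM) and the inhibitor p21 (CDKN1A, 2.63 ± 0.14 to 1.17 ± 0.24 FPKM) both fell, and 0 genes of this list were called by limma with a library left out against 6 with limma-voom.

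Proteasome subunits fell in 13 of 37 genes (35.1%), with a median of -0.28. PSMD2, a non-ATPase subunit of the regulatory particle, was at 160, 168 and 166 FPKM in siC and 84.7, 79.9 and 86.5 FPKM in siIGF2BP1 (-0.98 ± 0.047). The ATPase PSMC4 fell by 0.75. Core particle genes such as PSMA7 (177 ± 5.9 to 139 ± 5.3 FPKM) fell by less. The single increase was that of PSMB10, a subunit of the interferon-inducible immunoproteasome, from 5.66 ± 0.60 to 10.0 ± 0.29 FPKM. With a library left out 2 were called lower and 0 to 1 higher, and the median lay between -0.31 and -0.26.

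Genes of amino acid supply under the control of ATF4, the factor translated when eIF2α is phosphorylated, fell in 10 of 24 cases (41.7%). SESN2, an inhibitor of mTORC1, was at 7.24, 7.33 and 7.65 FPKM in siC and 2.42, 3.06 and 3.2 FPKM in siIGF2BP1. The leucine transporter SLC7A5 was at 28.9, 30.8 and 29.1 FPKM and at 14.7, 11.3 and 12 FPKM. The asparagine synthetase ASNS (-0.83), the mitochondrial PCK2 (-0.91) and the glutathione-degrading CHAC1 (-0.98) fell as well. The single member that rose was the hormone STC2 (20.4 ± 1.2 to 46.2 ± 2.8 FPKM), and ATF4 mRNA itself was at 92.3 ± 4.9 and 73.4 ± 5.0 FPKM (adjusted p = 0.0204). Between 0 and 5 were called lower with a library left out. In siSRF the medians of the list were further below siC, between -0.87 and -0.62, against -0.42 to -0.36 in siIGF2BP1, and both depletions share the siC libraries. In the unfolded protein response 2 of 20 fell, the chaperone HSPA5 by 0.29 and SDF2L1 by 0.76, and CANX rose. Fits with a library removed called 0 to 1 of these 20 lower and 0 higher.

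Cholesterol synthesis rose in 8 of 24 genes (33.3%) and fell in 0. SREBP-2, encoded by SREBF2, drives these genes when sterols are low. HMGCS1, which makes the substrate of HMG-CoA reductase, was at 7.31, 6.04 and 8.85 FPKM in siC and 19.4, 19.2 and 20.4 FPKM in siIGF2BP1. The sterol demethylation enzyme MSMO1 rose by 1.37, ACAT2 by 0.90 and SREBF2 by 0.58. SREBF1, of the fatty acid branch, fell from 13.5 ± 0.77 to 7.59 ± 0.41 FPKM, and the desaturase SCD rose by 0.46. Leaving out a library gave 1 to 5 calls among the cholesterol genes. Of 19 hypoxia genes 6 rose (31.6%) and 0 fell, with 2 to 4 called higher when a library was left out. HIF1A went from 38.2 ± 1.4 to 56.4 ± 0.31 FPKM, the collagen prolyl hydroxylase P4HA1 from 29.3 ± 2.9 to 60.2 ± 1.6 FPKM and the mitophagy receptor BNIP3L from 10.8 ± 0.33 to 20.8 ± 0.58 FPKM. Of these 6, P4HA1 and LOX also stand in the matrix list. Glycolysis moved in both directions, 4 of 23 lower and 3 higher, or 0 to 1 each with a library left out.

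Of 30 factors of mRNA stability 4 fell, HDLBP among them, and 1 rose. Apart from HDLBP the changes were small: ELAVL1, known as HuR, went from 17.2 ± 0.97 to 12.6 ± 0.61 FPKM, and KHSRP fell by 0.46 and SYNCRIP by 0.28. In the microRNA machinery DICER1 rose from 10.6 ± 0.41 to 16.1 ± 0.58 FPKM and AGO1 fell from 7.96 ± 0.27 to 4.63 ± 0.56 FPKM. Of the 18 writers, erasers and readers of N6-methyladenosine, the methyltransferase METTL3 and HNRNPA2B1 fell, by 0.56 and 0.39 on the log2 scale. With a library left out 1 to 2 stability factors, 0 to 1 microRNA factors and 0 to 1 of the N6-methyladenosine factors were called lower. Of the 20 let-7 target mRNAs tested, 2 fell, one of them IGF2BP1, and 3 rose. The chromatin factor HMGA1 fell from 654 ± 23 to 426 ± 41 FPKM and its relative HMGA2 rose from 8.19 ± 0.49 to 11.8 ± 0.91 FPKM.

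In other families single genes moved by large factors. The forkhead factor FOXD1 was at 110.2, 123.3 and 120.3 FPKM in siC and 34.8, 31.6 and 32.8 FPKM in siIGF2BP1 (-1.83 ± 0.061), and 2 of 24 FOX genes fell. Of 29 ABC transporters, ABCB8 fell by 1.21 and the multidrug exporter ABCC3 rose by 2.1. Of 213 solute carriers 17 fell and 14 rose, together 14.6%, with SLC37A4, the glucose 6-phosphate translocase, lower (-1.76). NQO1, an NRF2 target, rose from 66.0 ± 2.4 to 136 ± 3.4 FPKM. Of the 22 NRF2 and iron genes 3 rose and 1 fell (18.2% called), and of 16 BCL2 family genes 3 rose and 2 fell (31.2%), or 1 and 0 with a library left out. The pro-apoptotic BMF rose by 1.92 and the survival factor BCL2L1 fell by 0.43. Near or below the background were NOTCH pathway genes (0 of 15), HOX genes (1 of 33, HOXB9 lower), lysosomal and autophagy genes (1 of 29, CTSZ higher), zinc finger ZNF genes (15 of 385), cytosolic ribosomal proteins (3 of 80) and nuclear genes of oxidative phosphorylation (6 of 80). With limma-voom, 28 of the 80 ribosomal protein genes were called, 20 higher and 8 lower, and 5 of the 15 NOTCH genes, both above the share of all genes in that fit (17.1%). The 29 lysosomal and autophagy genes, 4 higher and 2 lower, were also above it. The 80 oxidative phosphorylation genes, 3 higher and 11 lower, were near it, and HOX and ZNF genes were below it. The 13 mRNAs of the mitochondrial genome are listed at 0 in every library and were not tested.

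**Figure D5:**
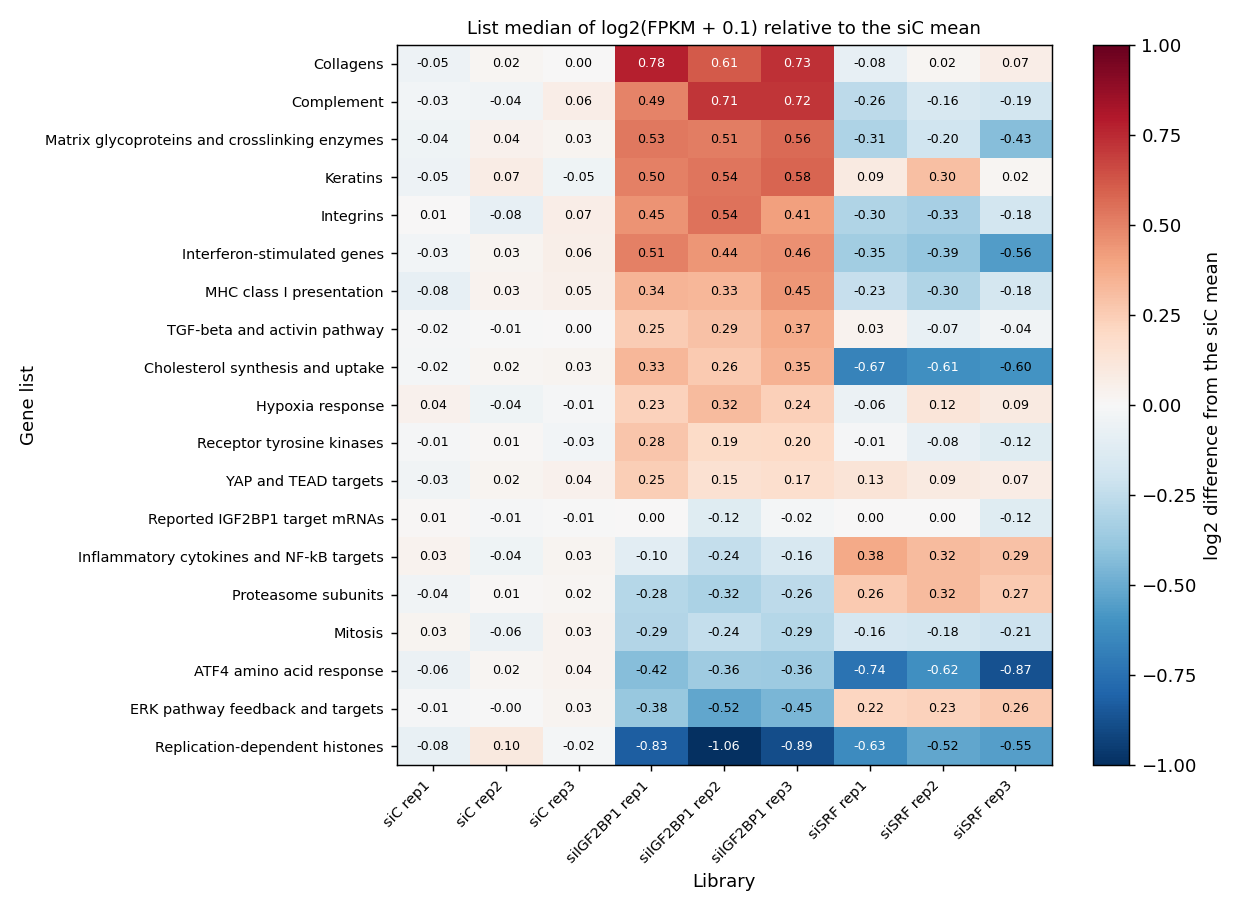
Median of log2(FPKM + 0.1) over the tested members of each of 19 gene lists (rows), given as the difference from the siC mean, in each of the 9 libraries (columns). The 3 siIGF2BP1 libraries have the same sign for each list but the reported IGF2BP1 targets. Measured against the same siC libraries, siSRF has the opposite sign in all its libraries for the interferon, MHC class I, complement, cytokine and ERK lists. The same holds for the receptor kinase, matrix glycoprotein, integrin, cholesterol and proteasome lists. For the histone, mitotic, ATF4, keratin, and YAP and TEAD lists all siSRF libraries have the sign of siIGF2BP1.

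Decreased and increased protein-coding genes differed in length, GC content and siC level. The 739 decreased genes had a median length of 4070 bases, a GC content of 53% and a median level of 23.0 FPKM in siC, against 6054 bases, 47.1% and 8.30 FPKM for the 691 increased genes and 5023 bases, 49.1% and 5.61 FPKM for all 12512 tested. These are descriptions with no test. The siC level is one side of the change that sorted the genes, so decreased genes are higher in it partly by construction. Over the libraries of both groups, median reads per library were 574 and 535 for the decreased and increased genes. Genes of other biotypes, 9780 in number, gave 57 decreased and 101 increased genes, of which 17 and 46 had fewer than 10 reads per library. The 8 with the largest change by the rule for named genes, among them MIR491 and RNU1.16P, all had a group at 0 and at most 5 reads in any library, so no fold is given. With at least 50 reads, a limit chosen after the values were seen, the long non-coding LINC00704 went from 54.8, 55.6 and 56.0 FPKM to 26.1, 31.9 and 24.4 FPKM and LINC00205 from 3.05, 3.60 and 3.78 FPKM to 12.8, 13.1 and 10.7 FPKM. The pseudogene ITGB1P1 rose by 1.5, close to the 1.53 of ITGB1, whose sequence it resembles, so the reads of both are uncertain.

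Since SRF mRNA itself was lower in siIGF2BP1 (means of 14.5 and 6.01 FPKM, adjusted p = 0.00111), the named genes were set beside the siSRF libraries, in which IGF2BP1 mRNA was at 14.2 ± 0.46 FPKM. Between siIGF2BP1 and siSRF 4460 of 22311 genes differed (20.0%), 2492 lower in siIGF2BP1 (11.2%) and 1968 higher (8.82%). Of the 24 protein-coding genes picked by size, 22 differed between both depletions and 24 had the sign they had against siC. These genes were chosen on the siIGF2BP1 libraries that both comparisons share, so the count is a description. IL1A was low in both, at 0.202 ± 0.040 FPKM in siIGF2BP1 and 0.281 ± 0.042 FPKM in siSRF (adjusted p = 0.505), and AKR1B10 did not differ by the test either, with siSRF libraries at 0.676 ± 1.1 FPKM. ESM1 was at 43.0 ± 1.6 FPKM and CXCL5 at 269 ± 6.2 FPKM in siSRF, above siC, and MMP2 at 5.31 ± 0.63 FPKM, below it. MMP1, SERPINB2, CCDC6 and HDLBP were at 3406, 364, 25.8 and 56.7 FPKM in siSRF, nearer to siC than to siIGF2BP1. By list, siIGF2BP1 was above siSRF in 25 of 42 interferon-stimulated genes, 19 of 24 cholesterol genes, 25 of 39 matrix glycoproteins and 11 of the 19 collagens tested there, and below it in 18 of 27 ERK feedback genes and 26 of 37 proteasome genes. Of 24 ATF4 genes 9 were higher and 4 lower in siIGF2BP1 than in siSRF, and of 39 mitotic genes 3 and 9. Of 65 histones 25 were lower in siIGF2BP1 and 4 higher, with a median difference of -0.34.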

How the data were processed

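Total RNA of 9 ES-2 transfections was depleted of ribosomal RNA and sequenced by the study. Per the labels and the study's methods, the authors trimmed reads with cutadapt 1.14, aligned them with HISAT2 2.1.0, counted them per gene with featureCounts 1.5.3 and deposited FPKM values with library sizes scaled by edgeR 3.18.1. The strand setting of the counting is not given in the sources used here, and values of antisense or overlapping genes are therefore uncertain. The table's fold changes and p-values of the authors were not used. Columns were matched to samples by their names, and samples were grouped by title.

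FPKM values of the 3 siC and 3 siIGF2BP1 libraries were converted to log2(FPKM + 0.1), which understates changes of low genes, and tested with limma 3.58.1 (R 4.3.3; trend over the mean) over all genes whose mean reached 0.1 FPKM, with Benjamini-Hochberg adjustment and a threshold of 0.01. FPKM are relative, so a change in total RNA per cell is not seen. Whole reads were recovered from FPKM and gene length (100% of values whole within 0.01 reads) for a limma-voom fit. On simulated data with 200 genes changed 2-fold, limma-trend recovered 9.0% of them and limma-voom 78.5% (21632 genes tested); with 3000 such genes, 61.5% and 80.4% (21475 tested). All 14 and 42 of 45 false calls of limma-trend had fewer than 10 reads, so calls below 10 reads are weak. The simulation gave every gene the same spread beyond counting noise and changed only genes of at least 1 FPKM. Its rates may therefore differ from those in the real libraries. Depth ranged from 6421764 to 8419467 reads, and intervals cover the spread between libraries only.

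Named genes were IGF2BP1 to IGF2BP3, the 12 protein-coding and 4 other genes per direction with the largest change among those called, non-overlapping and at least 1 FPKM in the higher group, SRF and its co-factors left out, and per list the 6 called members with the largest change and the most abundant one. The members and all 60 lists were chosen with earlier results of these data known, so lists are described by counts and medians without a test. Of the lists, 19 with at least 10 genes tested, a called share of at least 21.4% and 80% of the calls in one direction were drawn and followed through the alternatives; this choice was made after the values were seen. Gene positions are from GENCODE v44 (GRCh38). Alternatives were other pseudocounts (1 and 0.01), filters, scalings, fits, thresholds and each library left out. Some genes are not reported here.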

Additional observations from a re-analysis of the deposited data

How the results depend on the processing

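The number of genes called depended on the fit, and the medians of most lists less so. The counts of lower and higher genes, 796 and 792, became 1891 and 1914 with limma-voom on recovered reads, 1309 and 1172 with all 9 libraries in one fit, 1422 and 1339 with a mean of at least 10 reads per library (chosen after seeing the data), 1836 and 1760 at an adjusted p of at most 0.05, and 135 and 274 with a change of at least 2-fold required. Of the 1588 calls, 1524 (96.0%) were shared with limma-voom. With 1 library left out the counts were 117 to 246 lower and 156 to 316 higher. IGF2BP1 itself was called under 18 of 18 alternatives (-1.66 to -1.43).

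With the replicate number as a block 31 genes were lower and 60 higher. Over all genes tested, deviations of same-numbered libraries correlated at 0.00276, 0.0133 and -0.00692. Of these genes 37.7% had fewer than 10 reads per library, where counting noise is large. The correlations therefore cannot show whether the numbers pair the libraries. In the block fit 2 of 65 histones, 2 of 27 ERK feedback genes and 1 of 37 proteasome genes were lower. Of the mitotic and ATF4 genes 0 were called. Higher were 4 of 21 collagens, 5 of 39 matrix glycoproteins, 3 of 16 integrins and 1 of 42 interferon-stimulated genes. Of the MHC class I genes and receptor tyrosine kinases 0 were called. The cause of these changes in count was not tested.

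With a pseudocount of 1 FPKM list medians moved to 0.27 for interferon-stimulated genes, 0.46 for complement, -0.33 for ERK feedback genes, 0.20 for the TGF-β pathway, 0.49 for collagens, 0.33 for matrix glycoproteins, 0.35 for integrins, 0.46 for keratins and -0.32 for ATF4 genes, and with 0.01 FPKM to 0.54 for integrins. A filter at a mean of 1 FPKM gave 0.23 for YAP and TEAD targets, 0.48 for complement, 0.35 for receptor tyrosine kinases, 0.49 for matrix glycoproteins, 0.54 for integrins and -0.44 for ATF4 genes, and those with at least 10 reads 0.44 for receptor tyrosine kinases and 0.49 for matrix glycoproteins. Limma-voom gave 0.54 for integrins. Taking out the gene length trend gave 0.12 for receptor tyrosine kinases, 0.59 for collagens, 0.49 for matrix glycoproteins and 0.19 for hypoxia genes. Taking out GC content as well, chosen after seeing the data, gave 0.13 for YAP and TEAD targets, 0.50 for matrix glycoproteins, 0.62 for keratins, 0.41 for cholesterol genes and 0.19 for hypoxia genes. Among lists with a median of at least 0.1 in size, directions turned for growth factor ligands (0.023 at 1 FPKM, 0.059 without siC replicate 1), metalloproteinases (-0.18 at 1 FPKM, -0.0077 at 10 reads), plasminogen and serpin genes (-0.0099 under both filters) and RNA and DNA sensing (-0.0033 without siIGF2BP1 replicate 2). Medians nearer to 0 turned too, such as those of NOTCH genes (-0.20 at 1 FPKM, -0.16 without siC replicate 3), the IGF2BP family (0.18 at 1 FPKM), and, with GC content and length taken out, BCL2 (0.049), let-7 target (-0.048) and actin genes (0.043). With 1 library left out the medians ranged from -0.097 to -0.0059 for reported IGF2BP1 targets, 0.40 to 0.47 for interferon-stimulated genes, -0.0033 to 0.22 for RNA and DNA sensing, -0.23 to -0.13 for cytokines, -0.49 to -0.41 for ERK feedback genes, -0.37 to 0.059 for growth factor ligands, 0.26 to 0.32 for the TGF-β pathway, 0.48 to 0.58 for matrix glycoproteins, 0.40 to 0.54 for integrins, 0.43 to 0.57 for keratins, 0.26 to 0.33 for cholesterol genes, 0.15 to 0.28 for hypoxia genes and -0.40 to -0.33 for ATF4 genes.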
